A study of Zea mays with 12 samples.

Results

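Endosperm of the maize cross Mo17xB73 was set against endosperm of its father, the inbred line B73, at 13 days after pollination. The members are the 3 arrays labelled Mo17xB73 and the 3 arrays labelled B73, 6 of the 12 arrays of the series, chosen by genotype label and laid side by side by biological replicate number. Mo17xB73 is a first-generation hybrid of 2 inbred lines, with Mo17 taken as the mother because maize crosses are written with the female first, which the labels do not state. B73 endosperm came from a cross within the inbred line. The 3 Mo17 arrays (the mother) and the 3 B73xMo17 arrays (the reciprocal hybrid, with B73 as mother) serve as further points of reference and share the estimate of spread. No genotype carried an introduced allele and none was treated. All plants grew in the field, each array held RNA pooled over 6 ears, and all genotypes of a replicate were crossed within 30 minutes on 1 of 3 crossing dates.

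Endosperm is the tissue that feeds the embryo and the seedling. It forms when the central cell of the embryo sac is fertilised, so it carries 2 genome copies from the mother and 1 from the father. A gene expressed equally from every copy therefore lies nearer the level of the mother in a hybrid, and a gene at the level of the father departs from that dosage. Imprinted genes, which are expressed mainly from the copy of 1 parent, are known from this tissue. Its starchy cells store starch and zein proteins, the aleurone covers them, and the basal transfer layer takes up sugar from the mother plant. The question was which genes keep the paternal level in Mo17xB73 although 2 of its 3 genome copies come from Mo17.

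Of the 17734 probe sets on the array, 10670 were bright enough to be tested. Among those, 798 probe sets carried a usable name, from 651 genes. Levels below are MAS5 signals after each array was brought to a common median, values under 15.1 were raised to that floor, means are geometric means of 3 arrays, and differences are on the log2 scale with their standard error. Median deposited signal before scaling lay between 166.8 and 181 on the Mo17xB73 arrays and between 155 and 161.5 on the B73 arrays. Over the tested probe sets, log2 levels correlated at 0.985 on average within Mo17xB73 and 0.986 within B73, against 0.921 between the genotypes. Spike-in RNA added before labelling lay between -0.24 and 0.05 on the Mo17xB73 arrays and between 0.08 and 0.16 on the B73 arrays (log2 after scaling, relative to the mean of all arrays), and its part in the results was not tested. As markers of endosperm itself, the summed zein signal reached 24416 to 51405 in Mo17xB73 and 70201 to 80072 in B73. Nothing in the labels says that the pooled samples of a genotype came from separate plots, so p values measure the spread between these pools.

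Differences between the hybrid and its father were widespread and mostly small. Of the 10670 probe sets, 5449 were called between Mo17xB73 and B73 (51.1%; limma, Benjamini-Hochberg adjusted p under 0.05), 2679 higher (25.1%) and 2770 lower (26%) in the hybrid. The median size of the difference was 0.26 on the log2 scale beside a median standard error of 0.098, and 1027 probe sets (9.63%) differed by 2-fold or more, 627 higher and 400 lower in Mo17xB73. In 5399 of the 5449 calls the difference had the same sign on all 3 crossing dates. The 3 Mo17xB73 arrays lay wholly on one side of the 3 B73 arrays for 4626 of the calls, and for 49.5% of all tested probe sets. Called and uncalled probe sets, with the named genes at the extremes, are shown in the plot of levels.

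**Figure D1:**
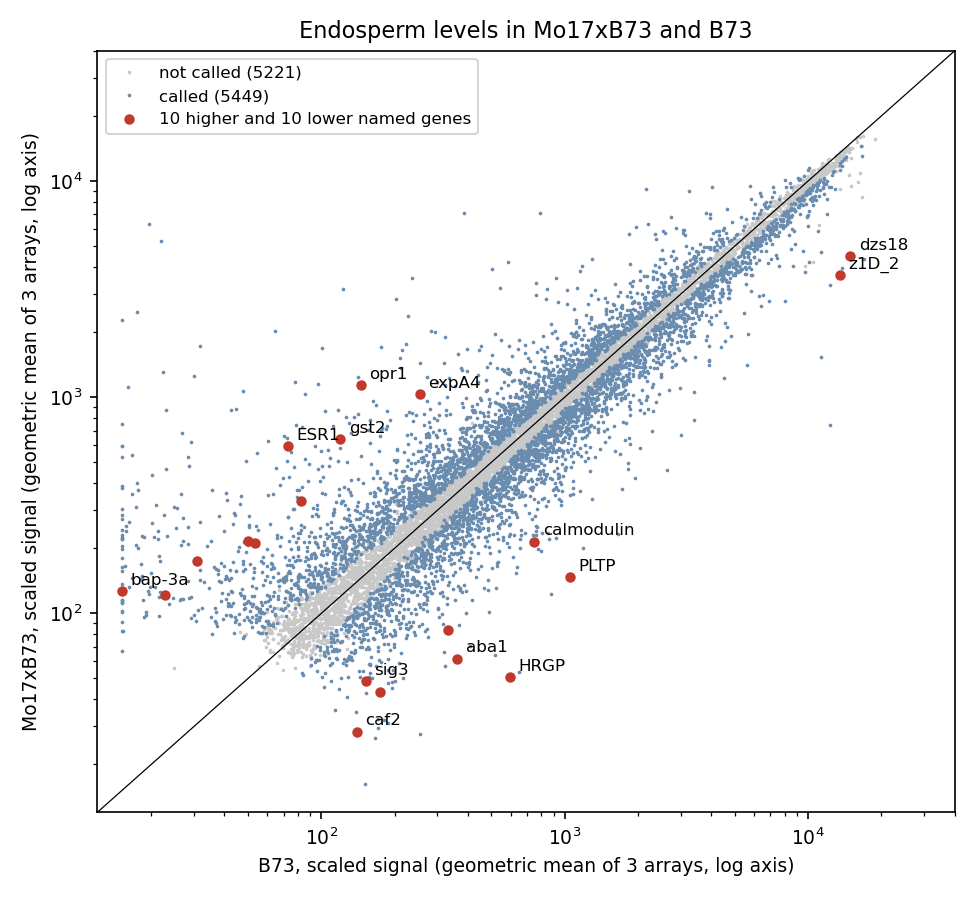
Each point is 1 of 10670 tested probe sets, with its geometric mean signal over 3 B73 arrays on the x axis and over 3 Mo17xB73 arrays on the y axis (both log axes). The diagonal marks equal levels. The red points are the 10 named genes with the largest increase and the 10 with the largest decrease among called genes whose Mo17xB73 and B73 arrays do not overlap, from bap-3a, ESR1 and opr1 above the diagonal to HRGP and PLTP below it.

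Few transcripts kept the level of the father. The parents differed by 2-fold or more at 1814 probe sets (17% of those tested), with B73 as the higher parent at 940 and Mo17 at 874. At any size, 63.2% of the tested probe sets were called between the parents. Mo17xB73 was counted at the paternal level where it differed from Mo17 and the 95% interval of its difference from B73 lay within 1.5-fold either way, a rule set for this comparison. This held for 27 of the 1814 probe sets (1.49%), all 27 where B73 was the higher parent and 0 where Mo17 was. An additive hybrid of parents 2-fold apart lies 1.5-fold below a higher B73, at the edge of this rule, and farther from a lower B73, so the rule is met more easily on the first side. The mirrored rule placed 360 at the maternal level, 81 with B73 as the higher parent and 279 with Mo17 as the higher parent, and here too a gene higher in Mo17 meets the rule by dosage alone. Another 922 lay between the parents and differed from both, and 505 were not placed. The count at the paternal level was 15 with no date term, 13 on the deposited scale, 14 with a stricter filter and 17 without the B73 array of replicate 2.

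The 27 probe sets at the paternal level ranged in their parental difference from 2.02-fold to 54.3-fold, with a median of 2.35-fold. Of the 27, 5 were called against B73 and 3 had a mean above B73. Their paternal share, described below, is 0 at the level of Mo17 and 1 at that of B73. It ran from 0.500 to 1.316, with a median of 0.839, so the set reaches down to levels midway between the parents. Only 3 carried a gene name: phb3, GT1 and ser1. The gene phb3 encodes a prohibitin, a scaffold protein of the inner mitochondrial membrane. Its signal was 245, 364 and 362 on the Mo17xB73 arrays, 324, 357 and 437 on the B73 arrays and 47.2, 49.0 and 57.0 on the Mo17 arrays. The hybrid arrays overlapped those of B73 and stood far above all 3 Mo17 arrays. The difference from B73 was -0.22 ± 0.13 (95% interval -0.51 to 0.08, adjusted p = 0.195 by limma), and the reciprocal hybrid lay lower, at 199 to 298. For GT1 the signals were 241.5, 273 and 293 in Mo17xB73, 283, 278.5 and 310.3 in B73 and 123, 125 and 185 in Mo17. GT1 likewise overlapped B73 and stood above Mo17, with a difference from B73 of -0.11 ± 0.17 (adjusted p = 0.607 by limma). The third gene, ser1, had 1167, 1371 and 1333 in Mo17xB73, 1587, 1689 and 1750 in B73 and 747, 836 and 784 in Mo17. All its hybrid arrays were below B73 and above Mo17, and it met the rule while being called lower than B73 (-0.38 ± 0.08, adjusted p = 0.00163 by limma). The share of ser1 was 0.565 ± 0.064.

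Some unnamed transcripts in the set, described after their values were seen, stood well above the mother. One had 7953, 7582 and 8870 in Mo17xB73, 9617, 8773 and 10622 in B73, and 125.5 to 252 in Mo17. It was the brightest of the 27 and the one whose parents stood farthest apart, and B73xMo17 was in the same range (9242 to 9477). Another lay near the father in both crosses. It had 972, 974 and 906 in Mo17xB73, 898, 814 and 951 in B73, 313 to 329 in Mo17, and 280.1 to 304 in B73xMo17, whose father is Mo17. Just inside the rule lay an unnamed probe set whose interval reached 1.498-fold below B73, with a share of 0.781. Just outside it lay sqs1, a squalene synthase gene, whose interval reached 1.512-fold, with a share of 0.668. Over the 27, the B73xMo17 arrays all lay below the Mo17xB73 arrays at 5 probe sets, all above them at 5, and overlapped them at 17. Over all 940 probe sets higher in B73, the corresponding counts were 20, 641 and 279. The 27 were chosen for Mo17xB73 values near B73, so the contrast between these counts is a description.

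**Figure D2:**
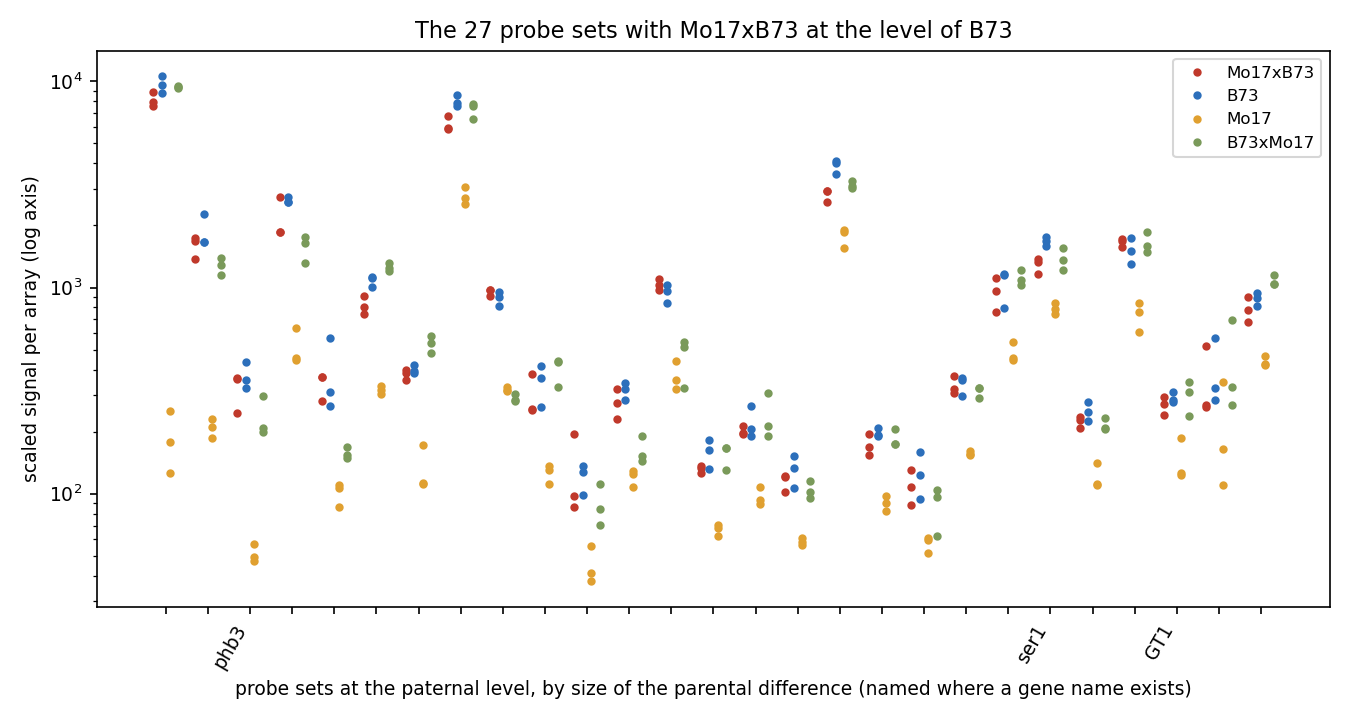
Signal per array (log axis) for the 27 probe sets with Mo17xB73 at the paternal level, ordered from the largest to the smallest parental difference, with 3 points each for Mo17xB73, B73, Mo17 and B73xMo17. Mo17xB73 and B73 overlap at 23 of the 27. The Mo17 mean lies below both at all 27, while the rule requires only that Mo17 differs from both, on either side. The names phb3, ser1 and GT1 mark the named genes.

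A paternal share, computed on linear rather than log2 signal, puts the hybrid on a scale where 0 is the level of Mo17 and 1 that of B73. Additive dosage then gives 0.333. Over the 1814 probe sets with parents 2-fold apart, the median share was 0.346, 0.302 and 0.335 on the 3 crossing dates, or 0.327 ± 0.023 (SD, n = 3 dates). It was 0.331 ± 0.021 where B73 was higher and 0.324 ± 0.024 where Mo17 was higher, a gap smaller than the spread between dates. The quartiles of the share averaged over dates were 0.222 and 0.436. The tails were uneven: a share over 0.8 occurred at 32 of 940 probe sets higher in B73 and 4 of 874 higher in Mo17, and a share below 0 at 16 and 99. The shares come from 9 arrays, and a share is noisy where the parents lie close together. With parents 4-fold apart, it was over 0.8 at 9 of 388 probe sets higher in B73 and 0 of 304 higher in Mo17. It was below 0 at 1 and 39 of these. The cause of the uneven tails was not tested.

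**Figure D3:**
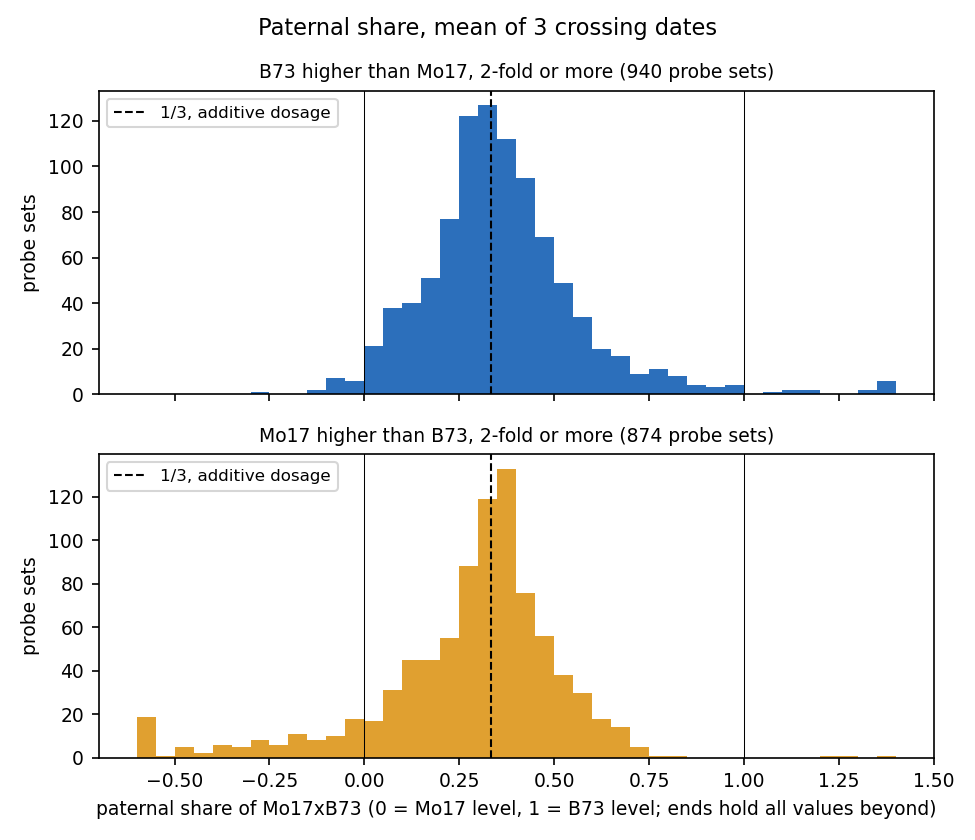
Number of probe sets by paternal share of Mo17xB73 (mean of 3 crossing dates), for 940 probe sets higher in B73 (top) and 874 higher in Mo17 (bottom). Both distributions peak near the dashed line at 0.333. The upper one has the longer tail toward 1, and the lower one the longer tail below 0.

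For some transcripts 1 parent was at the floor, and the hybrid could be given as a percentage of the other parent. These probe sets were chosen on the same parental values, so the percentages are a description. At 34 probe sets Mo17 was at the floor on all its arrays while B73 was over 151 on all of its own. There Mo17xB73 held 31.0%, 29.9% and 30.7% of the B73 signal on the 3 dates, or 30.5 ± 0.56% (SD of the date medians, n = 3), with quartiles of 26.8% and 34.4% over probe sets. The values over probe sets ran from 20.9% to 580.5%, and 1 of the 34 exceeded 80%. In the reciprocal cross the same 34 transcripts stood at 65.8 ± 2.05% of B73. At 24 probe sets with B73 at the floor, Mo17xB73 held 64.7 ± 0.61% of the Mo17 signal. None of the 34 or of the 24 has a usable gene name.

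Few named genes lay nearer to the father than to the mother on every date, on the linear scale of the share. Parents differed by 2-fold or more at 118 named genes, with B73 above Mo17 at 58 and below it at 60. The paternal share averaged over dates was over 0.5 at 20 of them, near the 282 of all 1814 probe sets (15.5%). It was over 0.5 on every date at 8 named genes. Besides GT1 and phb3, these were pip2-5, MADS11, HP1, hir2, HMT-2 and PIP2-4, picked out here after their values were seen. The aquaporin gene pip2-5 had 190.3, 178 and 189.8 in Mo17xB73, 275, 209 and 298 in B73 and 16.2 to 26.95 in Mo17, a share of 0.703 ± 0.118. HMT-2, a homocysteine methyltransferase gene, had 289, 324 and 301 in Mo17xB73, 528, 511 and 499.5 in B73 and 31.5 to 46.6 in Mo17, a share of 0.563 ± 0.043. Both genes had all hybrid arrays below those of B73 and many times above those of Mo17. On the other side, where B73 is the low parent, MADS11 (a MADS-box transcription factor) had 218, 185 and 289.5 in Mo17xB73, 129, 122 and 78.3 in B73 and 359 to 637 in Mo17. Its share was 0.695 ± 0.153, nearer to the low father on the linear scale. On the log2 scale it was about midway, differing by 1.08 from B73 and by -1.12 from Mo17. HP1 had a share of 0.648 ± 0.126, hir2 of 0.590 ± 0.042 and PIP2-4 of 0.559 ± 0.063. On the log2 scale HP1 differed by 0.65 from B73 and -0.73 from Mo17, and hir2 by 0.58 and -0.57. PIP2-4 differed by 2.42 from B73 and -1.03 from Mo17, so on that scale it was nearer to its mother.

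The share averaged over dates was below 0 at 15 of the 118 named genes, beside 115 of all 1814 probe sets (6.34%). At 9 of the 118 the share was below 0 on all 3 dates, so that Mo17xB73 lay beyond its mother, away from B73. They were m6, opr1, gst31, mn1, adh2, prp2, bap2, meg2 and bap-1a, all higher in Mo17 than in B73. None was called against Mo17 (the adjusted p by limma was 0.206 or more), which by itself does not show that the hybrid and its mother were alike. The mirrored rule placed adh2 and prp2 at the maternal level, so their distance from Mo17 was within what that rule allows. The other genes named here were not placed. The gene adh2, an alcohol dehydrogenase of ethanol formation, had 413, 389 and 396 in Mo17xB73, 187, 107 and 161 in B73 and 353.5, 357.5 and 332 in Mo17. All 3 of its hybrid arrays stood above all 3 Mo17 arrays, by 0.20 ± 0.16 in the fit (adjusted p = 0.422 by limma), and its share was -0.286 ± 0.140. The share was -0.478 ± 0.051 for gst31 and -0.237 ± 0.088 for prp2.

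The genes with the largest increase over B73 included markers of specialised endosperm regions. The 10 described first were chosen among called genes whose hybrid and B73 arrays do not overlap, which leaves out mn1 (3.24 on the log2 scale) and bap1-b (2.15), described with the basal transfer layer. Among the 10, bap-3a, a basal layer antifungal protein gene, read 251, 49.1 and 163 in Mo17xB73 and stood at the floor on all 3 B73 arrays. That is a difference of at least 8.35-fold (adjusted p = 0.000178 by limma), and Mo17 was higher still on each date, at 379, 62.3 and 341. ESR1, a marker of the endosperm cells around the young embryo, had 776, 428 and 635 in Mo17xB73 and 229, 44.1 and 38.9 in B73. It was 8.13-fold higher in the hybrid, as was its relative ESR1c1 at 5.67-fold. The RefSeq table lists the name ESR1c1 as a synonym of ESR1, so the 2 entries may be 1 gene. The gene opr1, an oxophytodienoate reductase, had 1275, 722 and 1601 in Mo17xB73 and 98.5, 126 and 247 in B73. The difference was 2.97 ± 0.26 (adjusted p = 2.94e-06 by limma), and Mo17 had 1142, 418 and 1075.

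The other 6 genes of this group were PIP2-4, gst2, CAF1, expA4, m6 and M7, with differences between 1.99 and 2.42 on the log2 scale. PIP2-4, a plasma membrane aquaporin, was 5.34-fold higher (93.9 to 179 in Mo17xB73 and 16.3 to 33.3 in B73). The glutathione transferase gene gst2 had 545, 729 and 656 in Mo17xB73 and 138, 91.7 and 135 in B73, 5.33-fold more. Expansin gene expA4, whose protein loosens cell walls, had 919.6, 1332 and 906 in Mo17xB73 and 265, 276 and 223 in B73, 4.08-fold more. Both of the other expA4 probe sets were also higher, by 0.98 and 1.08. CAF1, named after a factor of chloroplast intron splicing, was 4.31-fold higher. The MADS-box names m6 and M7 were 4.05-fold and 3.98-fold higher, and the RefSeq table lists M7 as a synonym of m6. The Mo17 mean was also above the B73 mean for all 10, and both comparisons share the B73 arrays.

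The largest decreases, chosen by the same rule, which leaves out z1C2 (-1.96 on the log2 scale), included storage, wall and stress protein genes. HRGP, a hydroxyproline-rich glycoprotein of the cell wall, had 54.0, 43.5 and 56.0 in Mo17xB73, 1045, 409 and 498 in B73 and 15.1 to 15.8 in Mo17. It was 11.7-fold lower in the hybrid (adjusted p = 1.34e-06 by limma), and its paternal share of 0.064 ± 0.024 lay far under 0.333. PLTP, a phospholipid transfer protein, had 179, 141 and 128 in Mo17xB73 and 1138, 1232 and 838.5 in B73, 7.15-fold less, with a share of 0.084 ± 0.029. B73xMo17, which carries 2 B73 copies, had 391 to 1059 for HRGP and 459 to 638 for PLTP. The gene aba1, also called asr1 in the RefSeq table, was 5.86-fold lower, at 51.8, 82.0 and 55.5 in Mo17xB73 and 606.5, 380.3 and 206 in B73. Also lower were caf2 (4.93-fold), mlg3 (4.01-fold), z1C1_12 (3.98-fold), z1D_2 (3.67-fold), calmodulin (3.501-fold), dzs18 (3.32-fold) and the plastid sigma factor gene sig3 (3.13-fold). For all 10 genes the Mo17 mean was lower still than the hybrid mean. The hybrid came closest to its mother at mlg3, a late embryogenesis abundant protein gene, with means of 43.4 in Mo17xB73, 174 in B73 and 37.9 in Mo17.

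**Figure D4:**
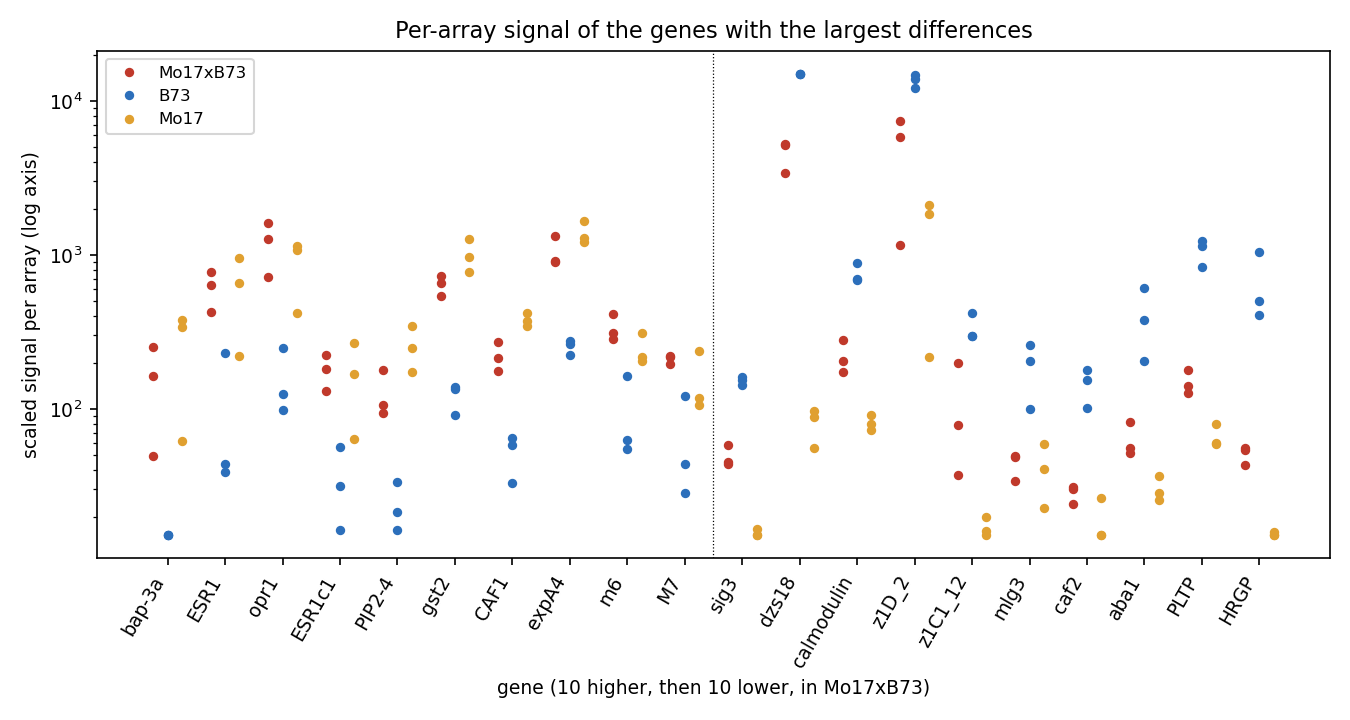
Signal per array (log axis) for the 10 named genes with the largest increase (left of the dotted line) and the 10 with the largest decrease (right) in Mo17xB73 against B73. For each gene the 3 arrays of Mo17xB73, B73 and Mo17 stand side by side. The genes were chosen for having no overlap between Mo17xB73 and B73. The Mo17 mean lies on the same side of B73 as the hybrid at all 20, and both differences share the B73 arrays.

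Zein genes, which encode the storage proteins of the kernel, were mostly lower in the hybrid. Of 8 tested, 6 fell and 0 rose, beside 26% lower and 25.1% higher over all tested probe sets, and their median difference was -1.498 beside -0.02 over all. The delta zein gene dzs18 had 5136, 3377 and 5230 in Mo17xB73, 14851 to 14989 in B73 and 55.8 to 96.6 in Mo17. Its share of 0.303 ± 0.071 is close to the dosage value, and its 3 other probe sets were also lower. The alpha zein z1D_2 had 7396, 1158 and 5841 in Mo17xB73, 14800, 12045 and 13858 in B73 and 2124, 217 and 1848 in Mo17. The value on the second date was low in both Mo17xB73 and Mo17, as it was for z1C2 (121 in Mo17xB73, 1136 in B73). The gamma zein gz50 was lower by 1.00 (4764 in Mo17xB73 and 9556 in B73), while gz27 had 10131 in Mo17xB73 and 10022 in B73, and neither this gz27 probe set nor z1C1_4 passed the test. A dimmer gz27 probe set was higher by 0.39. With crossing date as no term in the fit, 3 of the 8 were called lower. Without the second date 6 were called lower, with a median of -0.92.

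Regulators of storage genes and endosperm layers were called in both directions. Of 6 tested transcription factor genes, 4 fell and 1 rose, beside 26% and 25.1% over all tested probe sets, but 2 were lower and 0 higher without median scaling, and 3 lower and 1 higher under quantile normalization. Opaque2 (o2), the activator of alpha zein genes, had 1834, 1838 and 2827 in Mo17xB73, 3807, 3926 and 6613 in B73 and 328 to 346 in Mo17. It fell by 1.12 ± 0.14 on the log2 scale (adjusted p = 4.97e-05 by limma), with a share of 0.415 ± 0.018. A second o2 probe set differed by -0.24 (adjusted p = 0.167 by limma). Its partner ohp1 had 540.4, 559 and 562 in Mo17xB73 and 1023, 929 and 1011 in B73, while the related ohp2 was higher by 0.25. PBF, the prolamin-box binding factor, fell by 0.34 and Nkd1, a regulator of aleurone identity, by 0.24. Without the second date, 4 were lower and 0 higher.

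Starch genes showed mostly small differences. Of 16 tested, 7 fell and 2 rose (sus1 and the invertase gene mn1), with a median of -0.08. Over all tested probe sets 26% were lower and 25.1% higher. The sucrose synthase sus2 had 1151, 1278 and 928 in Mo17xB73, 2409, 2267 and 2190 in B73 and 611 to 751 in Mo17, 2.06-fold less than in B73 (adjusted p = 1.21e-06 by limma). wx1, the granule-bound starch synthase that makes amylose, averaged 5973 in Mo17xB73 and 8616 in B73. The ADP-glucose pyrophosphorylase subunit genes sh2 and bt2 fell by 0.18 and 0.24, and the sucrose synthase sh1 (14119 in Mo17xB73 and 14236 in B73) and the branching enzyme SBEIIb did not pass the test, although a dimmer sh1 probe set was lower by 0.63. Without median scaling, 2 fell and 1 rose.

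Of 15 chaperones of the endoplasmic reticulum, where storage proteins fold, 5 rose and 0 fell, and the median difference was 0.10. The share that rose was near the 25.1% over all tested probe sets. The protein disulfide isomerase gene pdi5 had 153, 195.1 and 177 in Mo17xB73, 46.9, 68.6 and 56.1 in B73 and 258 to 299 in Mo17, 3.08-fold more than in B73. Its relatives pdi4 and pdi8 rose by 1.08 and 0.86, calnexin (CNX) by 0.37 and the binding protein gene bip1 by 0.39. The brightest isomerase gene pdi, at 13722 in Mo17xB73 and 13873 in B73, and bip2 did not pass the test.

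Genes of the basal transfer layer were nearly all higher in the hybrid. Of 11 tested, 9 rose and 1 fell, beside 25.1% higher and 26% lower over all tested probe sets, with a median of 1.47. The cell wall invertase mn1, which splits sucrose as it enters the kernel, had 1308, 219.5 and 1002 in Mo17xB73, 312, 15.1 and 72.7 in B73 and 1160, 134 and 865 in Mo17. The ranges overlapped because the second date was low in every genotype, but within each date the hybrid was higher. The differences were 2.07, at least 3.86 and 3.78 on the log2 scale, since B73 was at the floor on the second date. The fitted difference, which uses that floored value, was 3.24 ± 0.33 (adjusted p = 1.07e-05 by limma with crossing date in the fit, 0.0572 without it). The antifungal protein gene bap1-b had 5012, 1874 and 4093 in Mo17xB73 and 2152, 270 and 756 in B73, and bap2 had 6593, 2380 and 5328 in Mo17xB73 and 3147, 476 and 1444 in B73. Both were again higher within every date. BETL1, betl3 and betl4 rose by 1.15, 1.02 and 1.42, meg2 rose by 1.47 and meg6 fell by 0.20. With crossing date left out of the fit, 2 of the 11 were called higher and 1 lower. In pooled tissue, fewer cells of a layer and less RNA per cell cannot be told apart. In B73xMo17 the means were 111.6 for mn1 and 695.7 for bap1-b, beside 70.0 and 760.3 in B73.

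Genes of the aleurone and of the anthocyanin pathway were called in both directions. Of 7 tested, 4 rose and 1 fell, beside 25.1% higher and 26% lower over all tested probe sets. The flavanone hydroxylase gene fht1 rose by 1.06 and the dehydrin gene dhn2 by 0.79, and chalcone synthase chs1 fell by 0.32. The summed signal of this list was 4553 to 5036.5 in Mo17xB73 and 4538 to 4796 in B73. Without the second date, 2 were higher and 1 lower.

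**Figure D5:**
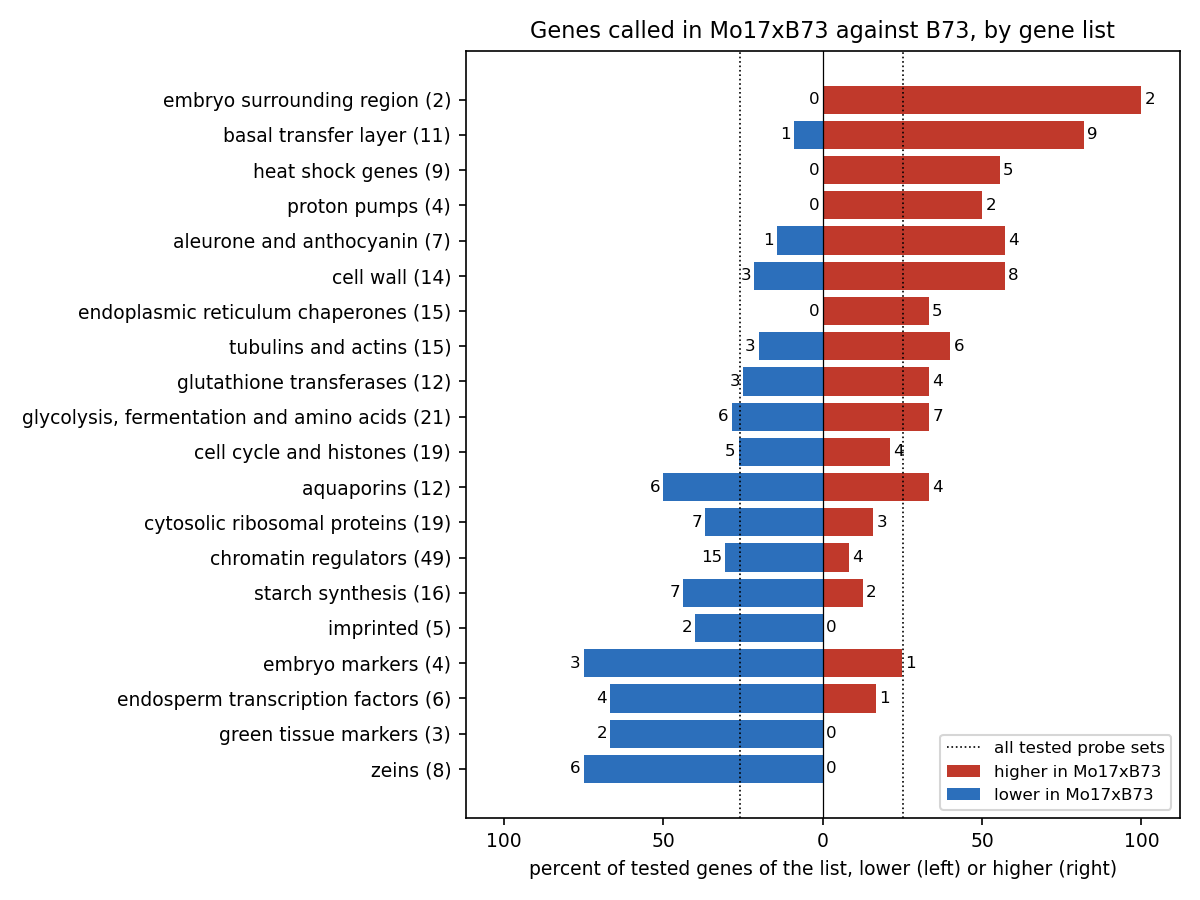
Share of the tested genes of each list (number in brackets) that were called higher (right, red) or lower (left, blue) in Mo17xB73 than in B73, with counts beside the bars. Dotted lines mark 25.1% and 26%, the shares over all 10670 tested probe sets. The embryo surrounding region (2 of 2 higher) and basal transfer layer (9 of 11 higher) stand at the top, and the zeins (6 of 8 lower) at the bottom.

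Of 14 cell wall genes, 8 rose and 3 fell, with a median of 0.62, beside 25.1% higher and 26% lower over all tested probe sets. The cellulose synthase genes CesA-1, CesA-2, CesA-6 and CesA-8 rose by 0.79 to 0.88, CesA-3 and CesA-4 fell by 0.23 and 0.56, and CesA-5, CesA-7 and CesA-9 did not pass the test. The expansin gene expa2 rose by 0.46. The proline-rich protein gene prp2 had 844, 1582 and 1083 in Mo17xB73, 361, 352 and 352 in B73 and 783.5, 1285 and 937 in Mo17. All hybrid arrays lay above those of B73 and overlapped those of Mo17, and the difference from B73 was 3.18-fold. Of 15 tubulin and actin-related genes, 6 rose and 3 fell, with a median of only 0.018. The beta tubulin gene tub4 had 1411, 1460 and 1259 in Mo17xB73 and 548, 415 and 486 in B73, 2.86-fold more (adjusted p = 1.48e-07 by limma), and the gamma tubulin tubg1 rose by 1.12.

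Water channel genes split in direction, with 4 of 12 higher, a share near the 25.1% over all tested probe sets, and 6 lower, beside 26% over all. Those that rose were PIP2-4 by 2.42, pip2c by 1.65, pip1-2 by 1.62 and pip2b by 1.47. Those that fell did so by 0.18 to 0.71, led by the vacuolar channel gene TIP3-1. With crossing date left out of the fit, 4 were higher and 1 lower. Proton pumps, which energise uptake across membranes, had 2 of 4 higher: the plasma membrane pump mha4 rose by 0.79 and the vacuolar pyrophosphatase H+-PPase by 0.33, while a dim second H+-PPase probe set differed by -0.05 and did not pass the test. Glutathione transferases had 4 of 12 higher and 3 lower, shares near those over all tested probe sets, and ran from gst2 and gst31 (1.90) at the top to gst6, which had 130.5, 131 and 111.5 in Mo17xB73 and 378, 307 and 247 in B73.

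Heat shock genes rose at 5 of 9, and 0 fell, beside 25.1% higher and 26% lower over all tested probe sets, with a median of 0.48. The disaggregase hsp101 had 629, 851 and 729 in Mo17xB73, 379, 171 and 333 in B73 and 852.5 to 1567 in Mo17. Small heat shock protein gene hsp18f had 4939, 4107 and 3310 in Mo17xB73 and 2961, 2138 and 2044 in B73, 1.73-fold more. The abundant hsp70-4 (8141 in Mo17xB73 and 8458 in B73) and hsp70-5 did not pass the test.

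In primary metabolism, 7 of 21 genes rose and 6 fell, shares near the 25.1% and 26% over all tested probe sets. Among those that rose, the pyruvate decarboxylase gene pdc1, of ethanol formation, had 5761, 5804 and 6119 in Mo17xB73, 2498, 2587 and 2506 in B73 and 5817 to 6911 in Mo17. It was 2.33-fold higher than B73 (adjusted p = 3.80e-08 by limma), pdc3 rose by 0.83, adh2 by 1.43 and formate dehydrogenase fdh by 0.79. Lower were the lysine-degrading enzyme gene lkrsdh1 (-1.03), the glutamine synthetase gln5 (-0.96), the fructokinases frk1 (-0.67) and frk2 (-0.72), pgd2 (-0.48) and pyruvate phosphate dikinase Ppdk1 (-0.40). The glycolytic genes eno1, eno2, ald1, gpc2, gpc3 and gpc4 had differences between -0.15 and -0.04 and did not pass the test.

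Of 19 cell division genes, 4 were higher and 5 lower, close to the 25.1% and 26% over all tested probe sets. Without median scaling 2 were higher and 2 lower, and with crossing date left out of the fit 4 were higher and 2 lower. The histone H2B gene his2b5 had 3226, 4070 and 5067 in Mo17xB73, 6376, 8081 and 8515 in B73 and 84.8 to 277 in Mo17, a share of 0.524 ± 0.050. Centromeric histone cenH3 fell by 0.45, and the cyclin gene cyc3 rose by 0.67. Cytosolic ribosomal protein genes had 3 of 19 higher and 7 lower, with differences between -0.54 and 0.34. The lowest were rpl29 (1066 in Mo17xB73 and 1554 in B73), rps13 and rpl30. Under quantile normalization 4 were higher and 3 lower, so the balance of this list depends on the scaling.

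Of 49 chromatin regulators, 15 fell, near the 26% over all tested probe sets, and 4 rose, beside 25.1% over all, with a median of -0.07. The histone acetyltransferase gcn5 had 654, 684 and 661 in Mo17xB73, 946, 910.1 and 931 in B73 and 423 to 477.5 in Mo17. Its partner ada2 fell by 0.79 and hxa103 by 0.72. The DNA methyltransferase gene dmt101 and the linker histone gene hon101 did not pass the test. Without the second date, 12 were lower and 0 higher. Without median scaling, 7 fell and 1 rose.

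Among 5 measured genes of the Polycomb and imprinting list, 2 fell and 0 rose, beside 26% lower and 25.1% higher over all tested probe sets. The gene fie1, a Polycomb gene known to be expressed from the maternal copy in endosperm, had 2980.4, 3427 and 3141 in Mo17xB73, 4424, 4655 and 5049 in B73 and 3194, 3378 and 3462 in Mo17. Mo17xB73 overlapped its mother and stood below its father on every array, with a difference of -0.57 ± 0.05 (adjusted p = 6.13e-06 by limma). B73xMo17 was at 4367 to 4583, overlapping its own mother B73. The histone methyltransferase gene mez1, also known as maternally expressed, had 1315, 1439.9 and 1219 in Mo17xB73, 2117, 2118 and 2026 in B73 and 1295 to 1432 in Mo17, and differed from B73 by -0.66 ± 0.07 (adjusted p = 9.16e-06 by limma). Paternal shares, for parents less than 2-fold apart, were -0.112 ± 0.131 for fie1 and -0.096 ± 0.197 for mez1. The relatives fie2 (168 in Mo17xB73 and 181 in B73) and mez2 (250.4 and 288) did not pass the test against B73. Nor did the DNA methyltransferase gene dmt101 (2443 and 2504), and mez3 was too dim to be tested.

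Embryo and green tissue can adhere to dissected endosperm, and markers of both were examined. Of 4 tested embryo markers, 3 fell and 1 rose, beside 26% lower and 25.1% higher over all tested probe sets. The globulin gene glb3 fell by 0.69, the oleosin ole1 by 0.33 and mlg3 by 2.00, and globulin-1 rose by 0.45. The summed signal of the 8 embryo genes was 9479 to 10222 in Mo17xB73, 13436 to 14426 in B73 and 7746 to 8878 in Mo17, with glb3 the brightest member and lec1 at the floor on every array. Of 3 tested green tissue markers, 2 fell, pep by 1.06 and me3 by 0.46, beside the same 26% lower over all. Without median scaling 2 embryo markers and 1 green marker were lower, and with crossing date left out of the fit 2 of each were lower. The summed signal of 13 genes was 630 to 813 in Mo17xB73 and 903 to 1171 in B73, with Cab-m7, Lhcb5-2, pep1 and psbs1 at the floor throughout. The part of these tissues in the other lists was not tested.

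Different probe sets of one gene could give opposite answers. For pdc2, a pyruvate decarboxylase gene, one probe set had 1223, 1258 and 1430.1 in Mo17xB73, 26.5, 15.1 and 27.8 in B73 and 1545 to 2070 in Mo17. A second had 1035, 909 and 1114 in Mo17xB73, 2173, 1972 and 2373 in B73 and 50.8 to 65.6 in Mo17. The first was 5.86 higher and the other 1.09 lower in the hybrid, while the remaining probe set had means of 1232 in Mo17xB73, 1060 in B73 and 1266 in Mo17. For tub6, 3 probe sets were lower by 0.32, 0.43 and 0.50 and one was higher by 0.71. The one lower by 0.50 had 2575, 3269 and 2841 in Mo17xB73, 3940, 4477 and 3850 in B73 and 308 to 495 in Mo17. Whether sequence differences between the alleles at the probes contribute to these or other values was not tested, since probe sequences were not used here.

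Levels outside the range of both parents were rare. Mo17xB73 was called above both parents at 4 probe sets and below both at 1 (0.0469% of those tested; limma, taking the weaker of the one-sided tests against each parent), beside 128 above and 157 below at an unadjusted p under 0.05. Of these 5, 2 carried a name. The small heat shock gene hsp18c had 1727, 1337 and 1027 in Mo17xB73, 775.5, 438 and 522 in B73 and 290 to 498 in Mo17, and every hybrid array exceeded every array of its parents. One gst31 probe set had 709, 417 and 941 in Mo17xB73, 269.9, 231 and 313 in B73 and 144 to 291 in Mo17, while the 3 other gst31 probe sets averaged 609 to 698 in Mo17 and 772 to 865.5 in Mo17xB73. An unnamed probe set had 228, 247 and 376 in Mo17xB73, 23.5, 15.1 and 54.9 in B73, 15.1 to 25.7 in Mo17 and 15.1 to 18.3 in B73xMo17. It was bright only in Mo17xB73 among the 4 genotypes. All its other arrays lay below the signal required for testing, so it entered the test only through its Mo17xB73 values. With no filter on dim probe sets, 0 probe sets were called outside the parental range. Leaving out single arrays gave between 0 and 5 calls, with 0 without Mo17xB73 replicate 1 or 3 or B73 replicate 1, 1 without Mo17xB73 replicate 2, 2 without Mo17 replicate 3, and 3 without Mo17 replicate 1 or B73xMo17 replicate 3. A further unnamed probe set was above both parents, by 0.90 over B73, and the one below both fell by 0.62 against B73.

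Against the mean of the parents weighted 2 for Mo17 and 1 for B73, formed within each crossing date, 0 of 10670 probe sets were called (limma, smallest adjusted p = 0.0761). At an unadjusted p under 0.05 there were 2421 (22.7%), 1018 above and 1403 below the weighted mean. The 3 date values leave few degrees of freedom, and when the same difference was computed from the fit to all 12 arrays, an alternative chosen after seeing the data, 424 were called, 189 above and 235 below. Of the 1814 probe sets with parents 2-fold apart, 75 were then called toward B73 and 77 toward or past Mo17. The 75 included 20 of the 27 probe sets at the paternal level. Those 27 were chosen on the same arrays for lying near B73, so this overlap follows largely from the rule.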

How the data were processed

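RNA from pooled endosperm of 4 genotypes, 3 arrays each, had been labelled with biotin and hybridised to Affymetrix maize arrays, per the labels' protocols. The deposited intensity values are MAS5 signals on a linear scale, 1 per probe set, per the submitters' processing notes, and neither the MAS5 version nor the scaling target is stated there. The number of arrays limits the precision.

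Each array was scaled to a common median, values under the 20th percentile (15.1) were raised to it, and log2 was taken. After 179 control probe sets were removed, 17555 remained, and the 10670 with a mean over the 40th percentile (73.2) were tested. A linear model with genotype and crossing date was fitted to all 12 arrays with limma 3.58.1 in R 4.3.3, with an intensity trend and 6 residual degrees of freedom, and p values were adjusted by Benjamini-Hochberg over all tested probe sets at 0.05. The labels tie replicate numbers to crossing dates. Deviations from the genotype means correlated at 0.436, 0.406 and 0.369 between Mo17xB73 and B73 arrays of the same number and at -0.109 to -0.341 between other pairs. The fit was tested on simulated data.

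Gene names came from the platform annotation, updated through RefSeq: 1452 probe sets had 1 gene, 1 had several and 16281 had none, and 1377 matched RefSeq. Each gene is represented by its brightest probe set. Named genes are the 10 highest and 10 lowest called genes without overlap between arrays, genes at the paternal level or outside the parental range, the 3 list members with the smallest adjusted p, and every measured gene of the imprinted list; other list members are named after their values were seen. The members and gene lists were chosen with earlier results of these data known. Alternatives were no date term, no scaling, quantile normalization, other floors and filters, no intensity trend and leaving out arrays; leaving out crossing date 2 or single Mo17 or B73xMo17 arrays, and the delta method for the weighted mean, were added after seeing the data. No sequences or coordinates are given, since no genome was used here.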

Additional observations from a re-analysis of the deposited data

How the results depend on the processing

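The direction of single named genes held under the alternatives tried, except for genes that passed the test in none of them: dmt101 turned to 0.0061 without scaling, 0.0023 under quantile normalization, 0.018 and 0.011 without B73 replicates 2 and 3 and 0.011 without crossing date 2, and fie2 to 0.016 without B73 replicate 1. With single arrays left out, dmt101 ranged from -0.13 to 0.018 and fie2 from -0.25 to 0.016. Calls between Mo17xB73 and B73 numbered 5449, 4232 with no replicate block, 3546 on deposited values without scaling, and 4501 to 5487 when single arrays were left out. With no replicate block mn1, bap2, H+-PPase, ole1, z1C2 and z1D_2 lost their calls. Calls between Mo17xB73 and Mo17 numbered 2024, 1178 with no replicate block, 1254 without scaling, and 1278 to 2097 with single arrays left out. Between B73 and Mo17 the last range was 5977 to 6803. The 27 probe sets at the paternal level became 15 with no replicate block (15 of them shared), 13 without scaling (12 shared) and 14 under a filter at the 60th percentile, and 17 to 34 with single arrays left out. The 5 probe sets outside the parental range became 2 with no replicate block, 0 with no filter on dim probe sets, 2 with a lower floor, 3 with no intensity trend, 2 without crossing date 2, and 0 to 5 with single arrays left out. The median paternal share of 0.327 became 0.368 without scaling and 0.318 to 0.342 with single arrays left out. Against the weighted mean of the parents, 0 calls became 310 under the stricter filter, 198 with no intensity trend and 424 by the delta method. The cause of these changes was not tested. With the weights turned to 2 for B73, 3038 were called, but this sets the hybrid against another expectation and is not a change of processing. Signals near the floor of 15.1 limit fold changes of dim probe sets, and 3 pooled samples a genotype limit what small differences can be called.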
